A study of Mus musculus with 4 samples.

Results

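The genes described here are the DNA methylation and demethylation machinery of mouse embryonic stem cells, 10 genes of the 25170 in each deposited table, matched by gene symbol: Dnmt1, Dnmt3a, Dnmt3b, Dnmt3l, Uhrf1, Uhrf2, Tet1, Tet2, Tet3 and Tdg. Transcripts were measured by sequencing of polyadenylated RNA in 4 groups with 1 library each. SO cells were genetically wild type and received an inhibitor treatment that the labels call SO and do not spell out. Ldha_KO cells carried a knockout of Ldha and Ldhb_KO cells a knockout of Ldhb, the genes of the A and B subunits of lactate dehydrogenase. WT cells were untreated wild-type cells of the E14 line. All cells were cultured on gelatin in medium with serum and LIF. The sources used here do not give the dose and duration of SO, the number of clones behind each knockout or the way the knockouts were made.

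With 1 library in each group there is no replicate error, so every difference below compares libraries, not conditions, and no p-value can be given. Levels are in FPKM, fragments scaled by gene length and library depth, which allows levels of different genes to be compared within a library. Differences are on the log2(FPKM + 1) scale, the first-named library minus the second, where 1 is a 2-fold difference for a well-expressed gene. In bulk RNA, fewer cells of a type and less RNA per cell cannot be told apart.

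DNA methylation in mammals is written onto cytosines of CpG dinucleotides by the Dnmt3 enzymes and copied after replication by Dnmt1, which is brought to newly made DNA by Uhrf1. The Tet enzymes oxidise methylcytosine in a reaction that needs iron and 2-oxoglutarate, and the glycosylase Tdg removes the most oxidised forms so that base excision repair can restore cytosine. Embryonic stem cells are known to express both the writing and the erasing enzymes at high levels, and in serum they carry more methylation than in the ground-state medium.

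None of the 10 genes differed 2-fold between any of the libraries compared. In SO against WT, 0 of 10 were higher and 0 lower by the 2-fold rule, against 2.69% and 0.472% of the 13142 genes kept. In Ldha_KO against WT the counts were also 0 and 0, against 2.65% and 1.06% of all genes. In Ldhb_KO against WT they were 0 and 0, against 3.36% and 1.09%. In Ldha_KO against Ldhb_KO they were again 0 and 0, against 1.67% and 1.54%. All 10 genes passed the filter of 1 FPKM in at least 1 library, and Tet3 was the only one of them below 1 in a library.

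A smaller rule of 1.5-fold was passed by Dnmt3a, Dnmt3b, Dnmt3l, Tet1 and Uhrf2, each in at least 1 comparison. In SO against WT, 2 of 10 genes were lower by this rule (Dnmt3a and Dnmt3b) and 0 higher, against 4.29% and 8.28% of all genes. In Ldha_KO against WT, 2 were lower (Dnmt3a and Dnmt3b) and 1 higher (Uhrf2), against 6.31% and 8.94%. In Ldhb_KO against WT, 2 were lower (Dnmt3a and Tet1) and 0 higher, against 7.2% and 12.6%. In Ldha_KO against Ldhb_KO, 2 were lower (Dnmt3b and Dnmt3l) and 0 higher, against 8.09% and 6.51%. With 10 genes and 1 library per group no test of these counts was made. The calls near the rule depend on the scaling. With equal sums, that is, with each library multiplied so that its values add up to those of WT, no gene passed it in SO, Dnmt3b and Uhrf2 did in Ldha_KO, Dnmt3a and Tet1 did in Ldhb_KO, and Dnmt3l alone did between the knockouts. The comparisons with WT share that library, so a value particular to it would enter all 3.

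**Figure D1:**
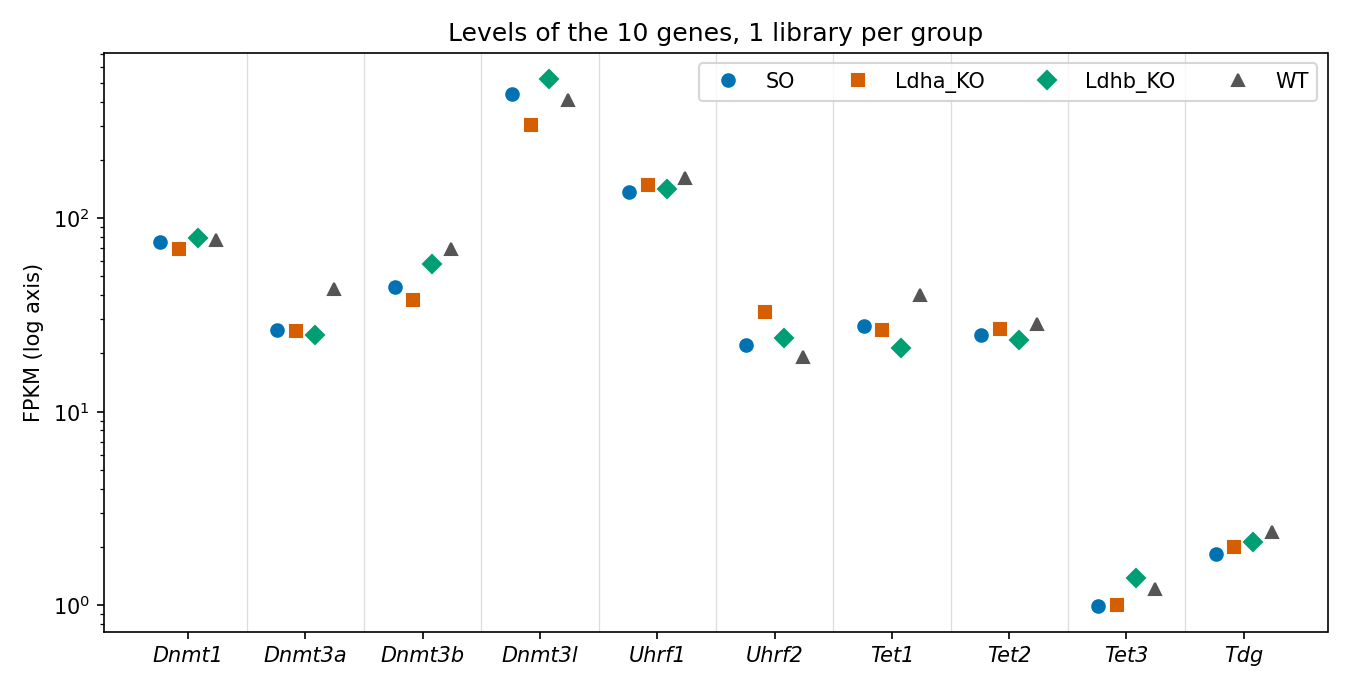
Level of each of the 10 genes in FPKM, on a log axis, in the SO, Ldha_KO, Ldhb_KO and WT libraries (1 point per library, no replicates). Dnmt3l lies between 303 and 521 in all 4 libraries, while Tet3 and Tdg lie at or below 2.40.

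The 5 genes that passed the 1.5-fold rule are shown with the DNA around 1 transcription start of each. CpG is the site onto which DNA methylation is written, and CpG-rich promoters are usually kept free of methylation. Each line gives 250 bases before to 50 bases after a start in RefSeq (build GRCm38.p6), read 5′ to 3′ on the gene's strand, with every CpG in capitals.
Tet1, chr10:62887275-62887574, minus strand: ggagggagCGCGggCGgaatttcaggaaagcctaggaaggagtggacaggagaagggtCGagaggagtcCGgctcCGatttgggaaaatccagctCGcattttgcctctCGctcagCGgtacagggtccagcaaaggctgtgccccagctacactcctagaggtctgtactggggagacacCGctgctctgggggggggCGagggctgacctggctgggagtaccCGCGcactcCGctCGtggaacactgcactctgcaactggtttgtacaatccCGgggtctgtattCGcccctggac
Dnmt3a, chr12:3891494-3891793, plus strand: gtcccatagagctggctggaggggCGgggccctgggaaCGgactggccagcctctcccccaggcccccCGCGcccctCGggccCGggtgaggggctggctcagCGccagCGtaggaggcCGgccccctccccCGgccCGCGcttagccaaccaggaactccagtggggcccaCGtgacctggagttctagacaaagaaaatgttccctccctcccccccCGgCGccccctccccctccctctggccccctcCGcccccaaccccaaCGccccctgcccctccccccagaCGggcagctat
Dnmt3b, chr2:153649199-153649498, plus strand: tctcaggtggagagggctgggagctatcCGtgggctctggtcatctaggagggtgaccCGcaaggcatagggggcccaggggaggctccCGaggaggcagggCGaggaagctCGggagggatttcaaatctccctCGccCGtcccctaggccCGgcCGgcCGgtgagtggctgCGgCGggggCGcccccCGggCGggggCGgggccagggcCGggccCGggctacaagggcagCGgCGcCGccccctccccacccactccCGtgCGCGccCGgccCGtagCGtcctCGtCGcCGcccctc
Uhrf2, chr19:30030263-30030562, plus strand: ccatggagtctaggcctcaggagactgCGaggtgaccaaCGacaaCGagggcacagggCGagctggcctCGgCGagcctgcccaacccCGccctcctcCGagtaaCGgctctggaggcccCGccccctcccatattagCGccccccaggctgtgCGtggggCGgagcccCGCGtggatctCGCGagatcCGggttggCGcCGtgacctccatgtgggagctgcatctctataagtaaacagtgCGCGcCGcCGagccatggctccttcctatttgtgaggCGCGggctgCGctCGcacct
Dnmt3l, chr10:78042037-78042336, plus strand: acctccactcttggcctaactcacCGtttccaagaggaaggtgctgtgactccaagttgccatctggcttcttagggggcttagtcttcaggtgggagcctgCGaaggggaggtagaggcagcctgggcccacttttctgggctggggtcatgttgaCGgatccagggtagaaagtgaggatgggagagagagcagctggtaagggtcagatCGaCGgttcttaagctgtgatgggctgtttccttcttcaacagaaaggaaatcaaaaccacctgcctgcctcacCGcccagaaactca

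These windows differ in CpG content. The Dnmt3b window holds 30 CpG dinucleotides, the Uhrf2 window 28, the printed Dnmt3a window 18 and the Tet1 window 17, while the printed Dnmt3l window holds 6. The median over 32817 promoter windows of the same length was 7, and 26.5% held at least 20. Dnmt3a has 2 other windows upstream of the printed one, which overlap each other and hold 46 and 47 CpG. Dnmt3a is known to give a long and a short isoform, the short one from an internal start and predominant in embryonic stem cells, and the deposited value per gene does not separate them. All 3 Dnmt3l windows were CpG-poor, with 6, 4 and 3. Among the other genes, Tet2 had 57, which only 0.152% of windows reached.

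A pair of motifs was searched on both strands. The E2F motif (TTTCCCGC, TTTCGCGC, TTTGCCGC or TTTGGCGC), named after a factor family that acts in S phase, was found in 1 window each of Dnmt1 and Uhrf1 and in none of the other 8 genes, and in 2.26% of all windows. The E-box CACGTG, which reads the same on both strands, was found in the printed Dnmt3a window and in windows of Dnmt3l and Tdg, and in 7.15% of all windows, so that matches to the motifs lay in different genes. A match describes letters in these windows only.

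The order of levels was the same at the top of every library. Dnmt3l was the highest of the 10 genes, followed by Uhrf1, Dnmt1 and Dnmt3b, and Tdg and Tet3 were the lowest. The gap from Dnmt3l to Uhrf1 was 3.19-fold in SO, 2.04-fold in Ldha_KO, 3.67-fold in Ldhb_KO and 2.52-fold in WT. Dnmt3a, Tet1, Tet2 and Uhrf2 filled ranks 5 to 8 and changed places between libraries. In SO the neighbours among these 4 differed by at most 1.13-fold, in Ldha_KO by at most 1.22-fold and in Ldhb_KO by at most 1.10-fold, so their order there cannot be separated without replicates. In WT, Dnmt3a and Tet1 were 1.06-fold apart, and Tet2 and Uhrf2 followed with gaps of 1.42-fold and 1.47-fold.

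Of the maintenance genes, Dnmt1, the enzyme that copies methylation onto the new strand, was at 75.5 FPKM in SO, 69.2 in Ldha_KO, 78.6 in Ldhb_KO and 77.2 in WT. Its whole range over the 4 libraries was 0.18 on the log2 scale, the smallest of the 10 genes. In SO, Ldha_KO and Ldhb_KO the differences from WT were -0.03, -0.16 and 0.02, and the sign in SO turned to 0.12 with equal sums.

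Uhrf1, which recognises half-methylated DNA and recruits Dnmt1, was at 137 FPKM in SO, 148 in Ldha_KO, 142 in Ldhb_KO and 161 in WT. WT was the highest library, and the differences from it were -0.23, -0.12 and -0.18, none past 1.5-fold. With equal sums the Ldha_KO value turned to 0.02. Uhrf1 stood at 1.81 times Dnmt1 in SO, 2.14 times in Ldha_KO, 1.81 times in Ldhb_KO and 2.08 times in WT, a ratio that no rescaling can move.

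Uhrf1 and Dnmt1 are known to follow the cell cycle, and the DNA replication genes of S phase are therefore given beside them. Of 22 such genes, 0 differed from WT by the 2-fold rule in SO, Ldha_KO or Ldhb_KO, and 20, 20 and 21 lay below 0. Their median differences were -0.28, -0.23 and -0.36, against -0.04, -0.03 and -0.02 over all genes kept. The genes kept include ones at low levels, whose differences the pseudocount damps, while these 22 were above 5 FPKM in every library. Genes at such levels needed factors of 1.08 in SO, 1.07 in Ldha_KO and 1.09 in Ldhb_KO to match WT at their median ratio. The medians and counts of this list are given without that scaling, and the share of all genes below 0 was not computed. Ccne1, the cyclin of S-phase entry, had the largest difference of the list in each, at 114 FPKM in SO, 112 in Ldha_KO and 105 in Ldhb_KO, against 208 in WT. Ccne2, its relative, was at 7.92 FPKM in SO, 9.86 in Ldha_KO, 5.11 in Ldhb_KO and 9.48 in WT. Pcna, the replication clamp to which Dnmt1 binds, was at 180, 197, 183 and 255 FPKM in the same order of libraries. The part of the cell cycle in the Dnmt1 and Uhrf1 values was not tested.

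Uhrf2, a relative of Uhrf1 that does not replace it in maintenance, was the one member with a value above WT in every other library. It was at 22.0 FPKM in SO, 32.6 in Ldha_KO, 24.1 in Ldhb_KO and 19.3 in WT. The Ldha_KO library stood above the other 3. The differences from WT were 0.18, 0.73 and 0.31, of which that in Ldha_KO passed the 1.5-fold rule, as it did with equal sums (0.87) and with libraries scaled by their median ratio to WT (0.83). In Ldha_KO 5.84% of all genes lay at or above it. As a share of Uhrf1, Uhrf2 was 16.1% in SO, 22.0% in Ldha_KO, 17.0% in Ldhb_KO and 12.0% in WT.

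Of the de novo enzymes, Dnmt3a was at 26.5 FPKM in SO, 26.2 in Ldha_KO, 24.8 in Ldhb_KO and 42.8 in WT. The first 3 libraries lay close together and WT stood apart above them. The differences from WT were -0.67, -0.69 and -0.76, or changes in level of -38.2%, -38.7% and -41.9%. Among all genes kept, 2.74%, 3.89% and 3.34% had a difference at or below that of Dnmt3a. With equal sums the differences were -0.52, -0.55 and -0.65, so that only the last still passed 1.5-fold.

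Dnmt3b, the other active de novo enzyme, which methylates centromeric repeats among other targets, was at 44.0 FPKM in SO, 37.8 in Ldha_KO, 57.7 in Ldhb_KO and 69.2 in WT. The 3 differences from WT were unlike those of Dnmt3a in their spread, at -0.64, -0.86 and -0.26. The value in Ldha_KO was the second largest difference of any member from WT, and 1.88% of all genes lay at or below it. In Ldhb_KO, Dnmt3b did not pass 1.5-fold, with 27.4% of genes at or below it.

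Together Dnmt3a and Dnmt3b summed to 70.4 FPKM in SO, 64.0 in Ldha_KO, 82.6 in Ldhb_KO and 112 in WT. Their ratio, Dnmt3a over Dnmt3b, was 0.601, 0.695, 0.430 and 0.618 in these libraries, so that the Ldhb_KO library held the least Dnmt3a relative to Dnmt3b.

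Dnmt3l, which has no catalytic activity and stimulates Dnmt3a and Dnmt3b, was at 436 FPKM in SO, 303 in Ldha_KO, 521 in Ldhb_KO and 405 in WT. Ldhb_KO was the highest library and Ldha_KO the lowest, and the differences from WT were 0.11, -0.42 and 0.36, none past 1.5-fold. Relative to the sum of its 2 partners, Dnmt3l was 6.19-fold in SO, 4.73-fold in Ldha_KO, 6.31-fold in Ldhb_KO and 3.62-fold in WT. This ratio was lowest in WT, where the sum of the partners was highest. Dnmt1 relative to the same sum was 1.07, 1.08, 0.952 and 0.690, again lowest in WT.

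**Figure D2:**
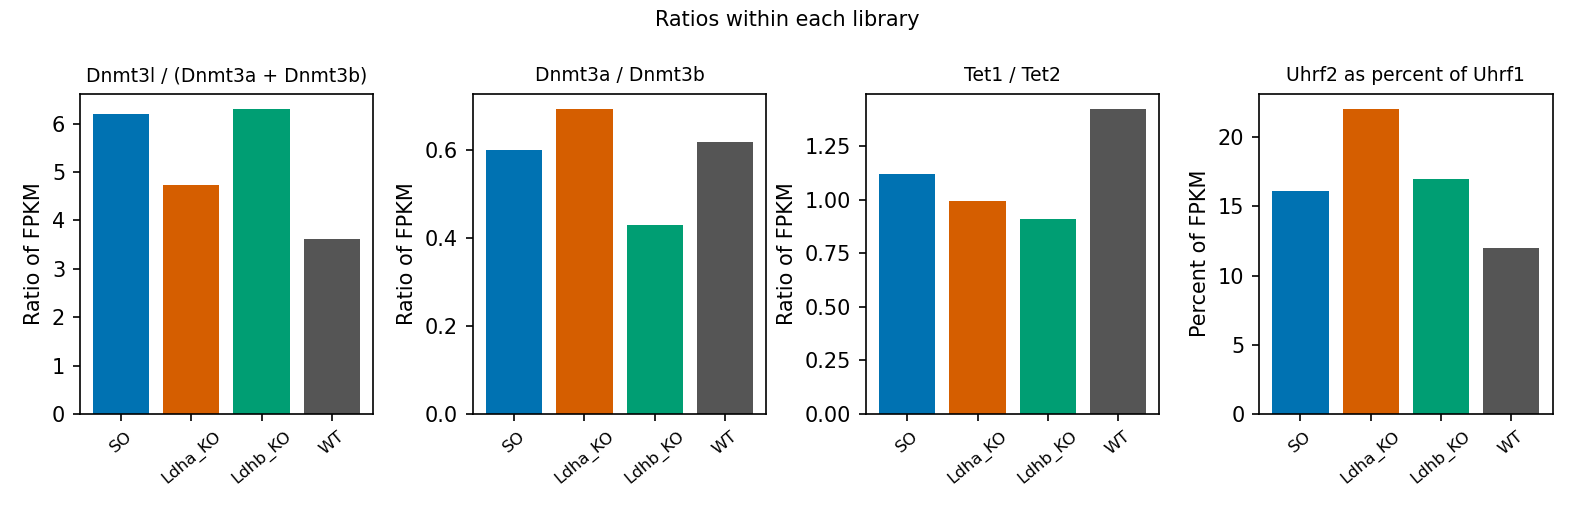
Ratios of FPKM within each library for SO, Ldha_KO, Ldhb_KO and WT, with bars from 0 and 1 library per bar. Dnmt3l over the sum of Dnmt3a and Dnmt3b is lowest in WT (3.62), Dnmt3a over Dnmt3b is lowest in Ldhb_KO (0.430), Tet1 over Tet2 is highest in WT (1.42), and Uhrf2 as a share of Uhrf1 is highest in Ldha_KO (22.0%).

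Of the erasing enzymes, Tet1, known as the main Tet gene of embryonic stem cells together with Tet2, was at 27.7 FPKM in SO, 26.6 in Ldha_KO, 21.4 in Ldhb_KO and 40.3 in WT. WT was the highest library and Ldhb_KO the lowest. The range over the 4 libraries, 0.88, was the largest of the 10 genes. The differences from WT were -0.52, -0.58 and -0.88, of which that in Ldhb_KO passed 1.5-fold, also under both rescalings (-0.77 and -0.76). The value in Ldha_KO narrowly missed the rule. In Ldhb_KO 1.88% of all genes lay at or below Tet1.

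Tet2 was at 24.8 FPKM in SO, 26.7 in Ldha_KO, 23.5 in Ldhb_KO and 28.3 in WT. Its differences from WT, -0.18, -0.08 and -0.26, were all smaller in size than those of Tet1, and that in Ldha_KO turned to 0.06 with equal sums. Tet1 over Tet2 was 1.12 in SO, 0.994 in Ldha_KO, 0.910 in Ldhb_KO and 1.42 in WT, and Tet1 made up 51.8%, 48.9%, 46.2% and 57.7% of the summed Tet level. That sum was 53.5 FPKM in SO, 54.3 in Ldha_KO, 46.2 in Ldhb_KO and 69.7 in WT. Relative to the sum of Dnmt3a and Dnmt3b it was 0.760, 0.849, 0.560 and 0.623, so that SO and Ldha_KO lay above WT and Ldhb_KO below it.

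Tet3, the Tet enzyme known from the oocyte and zygote, was at 0.997 FPKM in SO, 1.01 in Ldha_KO, 1.39 in Ldhb_KO and 1.22 in WT, or 1.74% to 3.01% of the summed Tet level. Tdg was at 1.85 FPKM in SO, 2.00 in Ldha_KO, 2.14 in Ldhb_KO and 2.40 in WT. Their largest differences from WT were -0.15 and -0.26. The pseudocount of 1 damps differences at these levels, and the number of reads behind them is not given. Tdg is uncertain for a further reason, since GENCODE M21 annotates a processed pseudogene of it, Tdg-ps, with which it can share reads. Dnmt3a and Dnmt3l have processed pseudogenes there as well, and Dnmt3b has a close copy, Dnmt3c. Another Tdg pseudogene, Tdg-ps2, was listed at 0 in every library, which does not show where reads shared with Tdg-ps were counted. The antisense gene Dnmt3aos was at 0.0633 FPKM in SO and 0.0667 in Ldha_KO, and was listed at 0 in Ldhb_KO and WT.

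**Figure D3:**
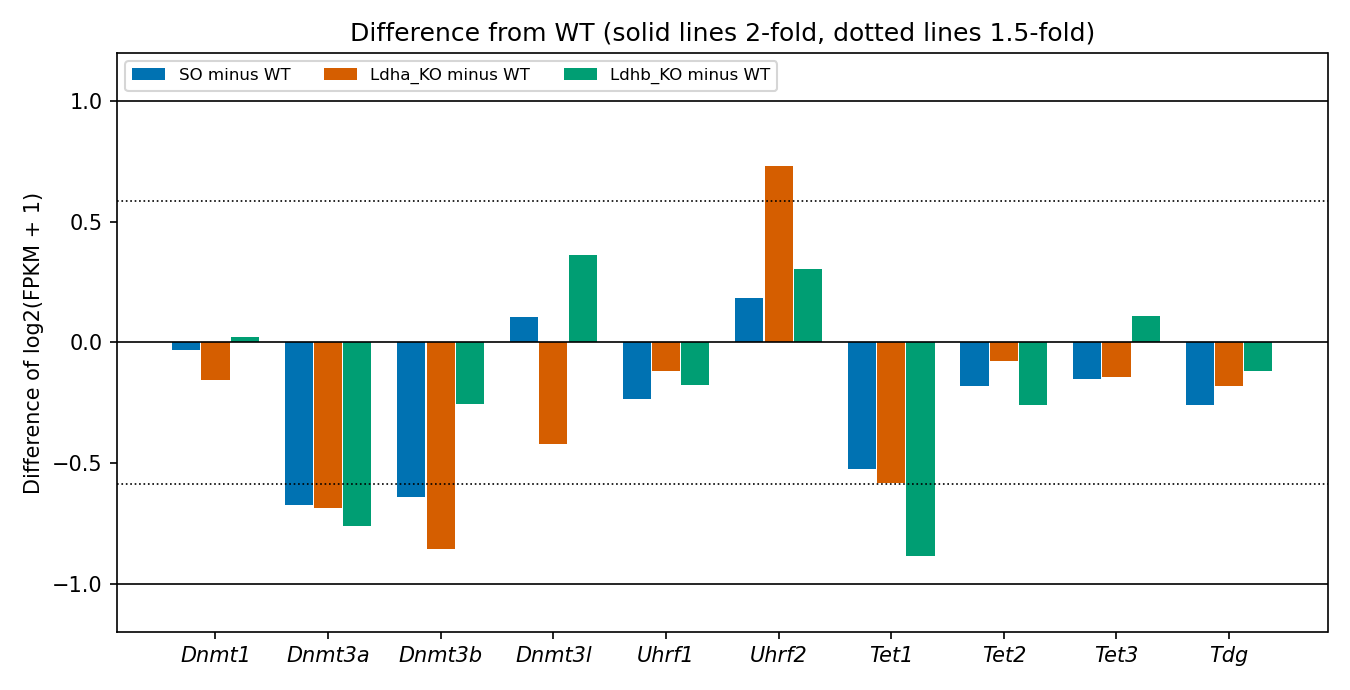
Difference of log2(FPKM + 1) from WT for each of the 10 genes, with bars for SO, Ldha_KO and Ldhb_KO in that order, solid lines at 2-fold and dotted lines at 1.5-fold. No bar reaches a solid line, Dnmt3a passes the dotted line in all 3 comparisons, and Uhrf2 passes it upwards in Ldha_KO (0.73).

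Set against all genes, the median of the 10 differences was -0.21 in SO, -0.17 in Ldha_KO and -0.15 in Ldhb_KO against WT, with 8, 9 and 6 of the 10 below 0. The medians of all genes kept were also below 0, at -0.04, -0.03 and -0.02. These include genes at low levels, whose differences the pseudocount damps. Scaling to equal sums shifts the median of all genes by 0.14, 0.12 and 0.10. The median of the 10 genes was then -0.07, -0.08 and -0.05, with 7, 7 and 6 below 0. Genes of at least 5 FPKM in every library needed factors of 1.08, 1.07 and 1.09 to match WT at their median ratio. With these factors the median of the 10 genes was -0.11, -0.10 and -0.04, with 7, 8 and 6 below 0.

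**Figure D4:**
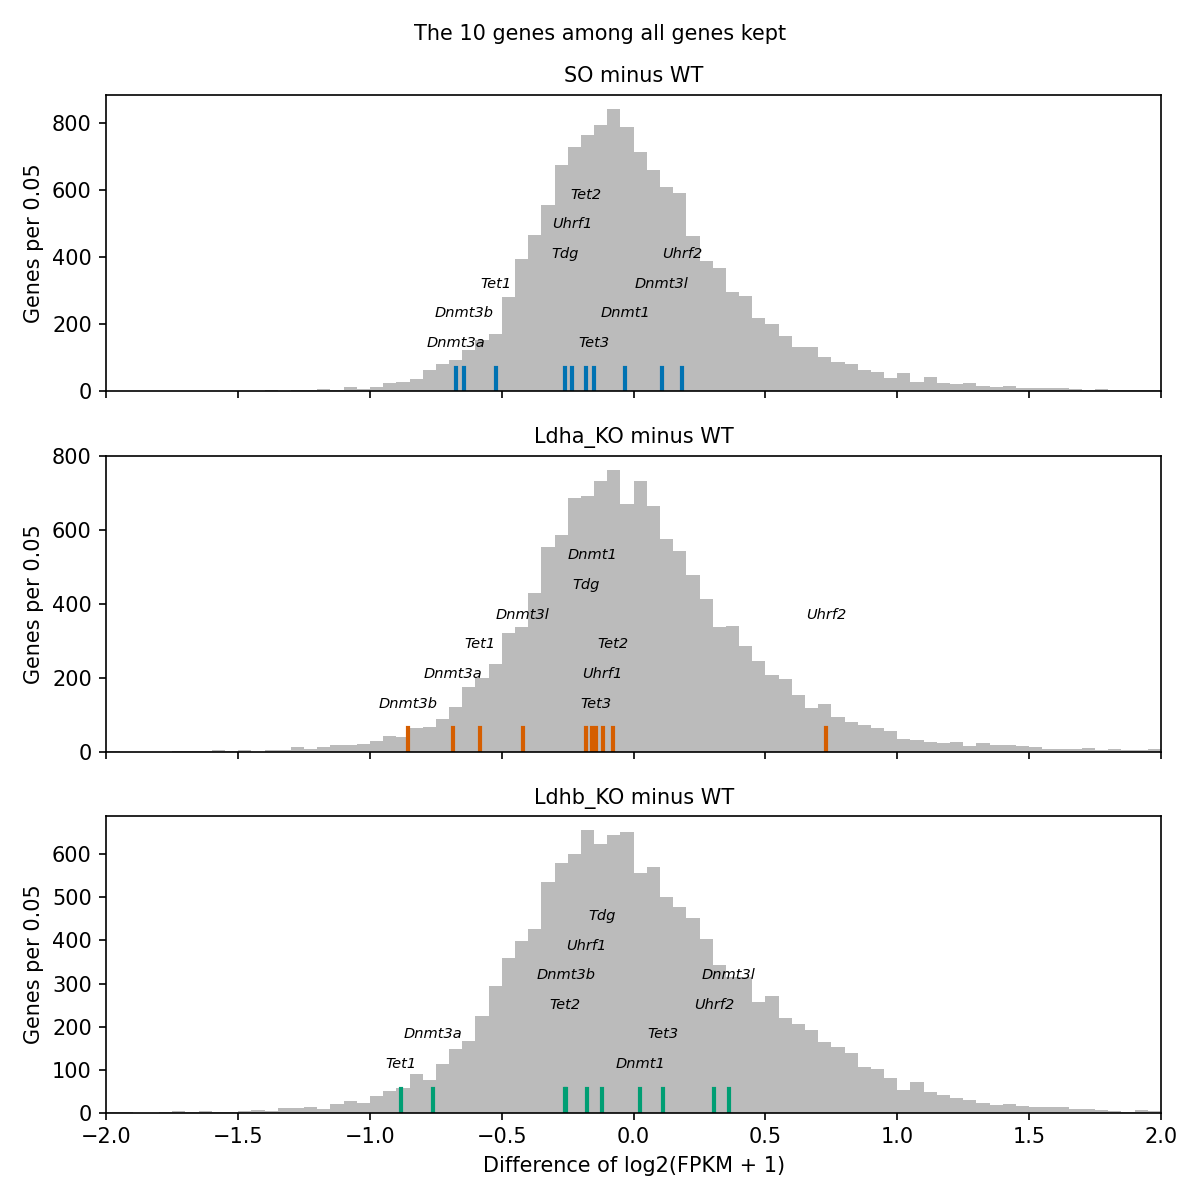
Distribution of the difference of log2(FPKM + 1) over the 13142 genes kept (grey, genes per bin of 0.05), with the 10 genes marked, for SO, Ldha_KO and Ldhb_KO against WT. Differences beyond 2 in size are not drawn. Dnmt3a lies in the lower tail of each panel, with 2.74%, 3.89% and 3.34% of genes at or below it, while Dnmt1 lies near the centre.

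Between the knockouts, the largest differences were in Dnmt3l and Dnmt3b. Dnmt3l was at 303 FPKM in Ldha_KO and 521 in Ldhb_KO, a difference of -0.78, with 3.68% of all genes at or below it. Dnmt3b was at 37.8 FPKM in Ldha_KO and 57.7 in Ldhb_KO, a difference of -0.60, which became -0.58 and missed 1.5-fold with equal sums. Uhrf2 was at 32.6 and 24.1 FPKM and Tet1 at 26.6 and 21.4, differences of 0.42 and 0.30 that did not pass. Dnmt3a differed by 0.08.

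The patterns of Dnmt3a and Tet1 over the 4 libraries lay close together, at a distance of 0.211 between their centred log2(FPKM + 1) values. Those of Uhrf1 and Tdg (0.0904) and of Uhrf1 and Tet2 (0.103) were closer, as those genes varied little. Of 9769 other genes with at least 5 FPKM in a library, the 5 nearest to Tet1 were Prmt1 (distance 0.0409), Zfp979 (0.0445), Gmppb (0.0920), Fastkd5 (0.0964) and Surf6 (0.0976). Prmt1, an arginine methyltransferase, was at 263 FPKM in SO, 249 in Ldha_KO, 197 in Ldhb_KO and 370.2 in WT. Within 0.25 of Tet1 there were 218 of the 9769 genes, so other genes shared the pattern but most did not. The nearest to Uhrf1 were Psmd11 (0.00945), Rab35 (0.0183), Snrnp40 (0.0198), Ap1m1 (0.0219) and Cnot10 (0.0234), and 2575 genes lay within 0.25. With 4 libraries such distances are a description.

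Among the partners and regulators of the Dnmt enzymes and Uhrf1, 18 genes, 0 were called by the 2-fold rule in SO against WT, 1 lower in Ldha_KO and 1 higher in Ldhb_KO. Of all genes kept, 1.06% were called lower in Ldha_KO and 3.36% higher in Ldhb_KO. Both calls in the list were Dppa3, which is known to keep Uhrf1 and Dnmt1 off DNA in the oocyte and early embryo. Dppa3 was at 4.24 FPKM in SO, 0.952 in Ldha_KO, 10.3 in Ldhb_KO and 4.03 in WT, so that the knockouts lay on opposite sides of WT. Relative to WT the list's median differences were -0.27, -0.31 and -0.41 in SO, Ldha_KO and Ldhb_KO. In SO the largest differences were in Nsd1, a histone methyltransferase, at 19.3 FPKM in SO and 28.3 in WT, and in Pcna.

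Among the partners and regulators of the Tet enzymes, 9 of 10 genes were kept. Lin28a, an RNA-binding protein that has been linked to Tet1 recruitment, was at 136 FPKM in SO, 107 in Ldha_KO, 157 in Ldhb_KO and 225 in WT. It was the 1 gene called, lower in Ldha_KO against WT (-1.06), and was no longer called under either rescaling. The share of all genes called lower there was 1.06%. The list's median differences from WT were -0.23, -0.16 and -0.36. The largest in both SO and Ldhb_KO was in Hif1a, a hypoxia factor, at 31.6 FPKM in SO and 34.7 in Ldhb_KO, against 55.8 in WT.

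Of the genes of methyl donor supply, most calls were in the Ldhb_KO library. Mat2a makes S-adenosylmethionine, the methyl donor of the Dnmt enzymes, and was at 264 FPKM in SO, 272 in Ldha_KO, 105 in Ldhb_KO and 267 in WT. SO, Ldha_KO and WT lay together and Ldhb_KO stood apart below them, with a difference of -1.34 from WT. Gnmt, a methyltransferase that consumes S-adenosylmethionine, was at 1.48 FPKM in SO, 1.66 in Ldha_KO, 5.44 in Ldhb_KO and 1.16 in WT, and its difference in Ldhb_KO was 1.58. Tdh, the threonine dehydrogenase that mouse embryonic stem cells are known to need, was at 236 FPKM in SO, 164 in Ldha_KO, 189 in Ldhb_KO and 336 in WT. It was called lower in Ldha_KO (-1.03), which neither rescaling kept. Of 14 genes kept of 16, these made 1 higher and 1 lower in Ldhb_KO, 0 and 1 in Ldha_KO and 0 and 0 in SO. The shares over all genes kept were 3.36% and 1.09% in Ldhb_KO, 2.65% and 1.06% in Ldha_KO, and 2.69% and 0.472% in SO. The list's medians were -0.14, -0.18 and -0.06 in SO, Ldha_KO and Ldhb_KO.

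Of the 16 genes of 2-oxoglutarate and Tet cofactor supply, 0 were called in any comparison, with median differences from WT of -0.18, -0.12 and -0.01 in SO, Ldha_KO and Ldhb_KO. Glud1, which makes 2-oxoglutarate from glutamate, was at 164 FPKM in SO, 122 in Ldha_KO, 150 in Ldhb_KO and 187 in WT. With a pseudocount of 0.1, which weighs low values more, 1, 2 and 1 genes were called lower in SO, Ldha_KO and Ldhb_KO. Over the 13142 genes kept, 182, 321 and 311 were called lower with it. D2hgdh, an enzyme that turns hydroxyglutarate back into 2-oxoglutarate, was at 0.547 FPKM in SO, 0.467 in Ldha_KO, 0.354 in Ldhb_KO and 1.22 in WT. D2hgdh passed the filter through WT alone, so it could only lie below WT.

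In base excision repair after Tet and Tdg, 13 genes, the calls were both in Ldhb_KO against WT. They were 1 higher and 1 lower, against 3.36% and 1.09% of all genes kept. Neil2, a glycosylase, was at 4.64 FPKM in SO, 3.39 in Ldha_KO, 6.62 in Ldhb_KO and 2.16 in WT, a difference of 1.27 in Ldhb_KO. Apex2, an endonuclease, was at 11.0 FPKM in SO, 12.5 in Ldha_KO, 6.63 in Ldhb_KO and 15.4 in WT, a difference of -1.10 in Ldhb_KO that both rescalings took below 2-fold. Neil3, of the same family as Neil2, was at 9.08, 10.6, 8.46 and 5.07 FPKM in these libraries, with a difference of 0.93 in Ldha_KO that passed 2-fold under both rescalings. The list's medians were -0.05, -0.14 and 0.22 in SO, Ldha_KO and Ldhb_KO.

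Of the 4 cytidine deaminases, which have been proposed to take part in demethylation, 3 were kept. Apobec2 was at 10.9 FPKM in SO, 14.4 in Ldha_KO, 3.93 in Ldhb_KO and 14.2 in WT, a difference of -1.62 in Ldhb_KO against WT and of 1.64 in Ldha_KO against Ldhb_KO. Apobec1 was at 3.73, 2.32, 4.73 and 1.52 FPKM in the order SO, Ldha_KO, Ldhb_KO and WT, a difference of 1.18 in Ldhb_KO. The list's medians were -0.21, 0.02 and -0.25. Of 7 methyl-CpG readers 0 were called, with medians of 0.09, 0.16 and -0.06. Their largest difference in SO and in Ldha_KO was that of Mbd3, a subunit of the NuRD complex, at 29.0 FPKM in SO, 32.0 in Ldha_KO, 39.4 in Ldhb_KO and 45.2 in WT. Mbd2, a related subunit, was at 18.7, 22.0, 17.0 and 15.7 FPKM in the order SO, Ldha_KO, Ldhb_KO and WT.

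Dnmt3a and Dnmt3b are known to rise as cells leave the naive state for formative pluripotency, and genes of that state are given beside them. Of 12 such genes 11 were kept, of which 2, 4 and 2 were called lower than in WT in SO, Ldha_KO and Ldhb_KO, and 0 higher. The shares over all genes kept were 0.472%, 1.06% and 1.09% lower, and 2.69%, 2.65% and 3.36% higher. The list's medians were -0.22, -0.65 and -0.59, against -0.04, -0.03 and -0.02 over all genes kept. Lef1 and Zic2 were the genes called in SO, Lef1, Otx2, Pou3f1 and Dusp6 in Ldha_KO, and Foxd3 and Otx2 in Ldhb_KO. Lef1, a transcription factor of Wnt signalling, was at 2.46 FPKM in SO, 2.14 in Ldha_KO, 4.36 in Ldhb_KO and 9.51 in WT. Foxd3, a forkhead factor, was at 17.0, 13.0, 5.54 and 18.9 FPKM in the same order of libraries. Otx2, a homeodomain factor, was at 69.4 FPKM in SO, above WT at 61.6, and at 25.3 in Ldha_KO and 28.4 in Ldhb_KO, below WT. Pou3f1, a POU factor, was at 6.11 FPKM in SO, 3.20 in Ldha_KO, 4.66 in Ldhb_KO and 8.09 in WT. Under either rescaling the count was 1 in SO and 1 in Ldhb_KO. The part of pluripotency state in the Dnmt3a and Dnmt3b values was not tested.

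A list of 17 germline genes, several of which are known to be silenced by promoter methylation, is given beside the machinery. The list was chosen with earlier results of these data known. Of the 16 kept, 2 were called higher in SO, 5 in Ldha_KO and 1 in Ldhb_KO against WT, with 0 lower in each. Over all genes kept, 2.69%, 2.65% and 3.36% were called higher. The list's medians were 0.33, 0.65 and 0.65, against -0.04, -0.03 and -0.02 over all genes kept. Of the 16, 13, 16 and 15 lay above 0. Asz1, a piRNA pathway gene, was at 1.01 FPKM in SO, 2.68 in Ldha_KO, 0.525 in Ldhb_KO and 0.201 in WT, and passed the filter through SO and Ldha_KO alone. Tex101, a germ cell surface protein, was at 9.53 FPKM in SO, 16.7 in Ldha_KO, 9.41 in Ldhb_KO and 3.67 in WT, and was called in all 3 comparisons. Taf7l, a germ cell relative of a general transcription factor subunit, was at 14.4, 19.5, 11.0 and 5.19 FPKM in the same order of libraries and was called in SO and Ldha_KO. Ldha_KO was the highest library for each of these. Dazl, which binds RNA in the germline, was at 24.0 FPKM in SO, 51.1 in Ldha_KO, 16.5 in Ldhb_KO and 13.0 in WT, and was called in Ldha_KO, as were Asz1 and Slc25a31, a germline mitochondrial carrier. With a pseudocount of 0.1, 4 genes were called in Ldhb_KO in place of 1. Methylation itself was not measured in these libraries, and whether it differs at these genes was not tested.

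As a check of the labels, Ldha was at 154 FPKM in Ldha_KO and Ldhb at 5.74 FPKM in Ldhb_KO, against 1774 and 76.5 in WT. All 7 stem cell markers (Pou5f1, Sox2, Nanog, Zfp42, Esrrb, Klf4 and Dppa5a) were above 100 FPKM in every library. None was called by the 2-fold rule. Against WT, 1 was lower and 1 higher by the 1.5-fold rule, both in Ldha_KO. Sox2, the lower, was at 344 FPKM in SO, 204 in Ldha_KO, 389 in Ldhb_KO and 371 in WT. Klf4, the higher, was at 133, 193, 142 and 124 FPKM in that order of libraries. Of 8 fibroblast or feeder markers, Lum and Dcn were at 0 in all 4 libraries. The summed level, mostly Vim, was 205 FPKM in SO, 194 in Ldha_KO, 186 in Ldhb_KO and 258 in WT. Of the 4 kept, Vim and Thy1 were below WT in SO, Ldha_KO and Ldhb_KO, and Pdgfrb and Col1a1 above it. Pdgfrb was at 3.35 FPKM in SO, 2.80 in Ldha_KO, 3.63 in Ldhb_KO and 0.949 in WT, and was called higher in SO and Ldhb_KO. WT alone was below the filter for Pdgfrb. The value of 1 read was compared over low genes whose ratio between a pair of libraries lay near the commonest ratio. For SO and WT these were 348 of 1484 genes, and a small span was thereby fixed in advance. The span (10th to 90th percentile) was 0.0167% between SO and WT and 0.576% between Ldha_KO and WT. The relative depths were 1.05 for SO, 0.995 for Ldha_KO and 1.05 for Ldhb_KO times WT. The span was 0.431% between Ldhb_KO and WT and 0.219% between the knockouts. The span was smallest between SO and WT. Because of that choice of genes, the span does not describe how evenly low genes compare, or how alike the levels of the libraries are. Its part in the differences from WT was not tested. The labels name no batch.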

How the data were processed

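Polyadenylated RNA of mouse embryonic stem cells was sequenced by the submitters in 4 groups of 1 library, taken from the treatment labels. Per the submitters' processing notes, the genome build was mm9, and edgeR 3.26.8, HTSeq 0.11.2, SAMtools 1.9 and Bowtie2 2.3.4.3 are named with no role for each. The deposited values were read as FPKM made by the authors, from the values alone (not whole, with sums that differ), and RPKM could not be told apart. Depth in reads is unknown, so no counting interval was computed. Only relative depths were estimated, from genes below 0.2 FPKM in a pair of libraries whose ratio lay near the commonest ratio.

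Differences of log2(FPKM + 1) were computed for 4 comparisons over 13142 genes with at least 1 FPKM in at least 1 library, called at 2-fold (a difference of 1). A 1.5-fold rule, a pseudocount of 0.1, no filter, a filter of 5, and libraries scaled to equal sums or by their median ratio to WT were alternatives. No p-value was computed.

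The members and gene lists were chosen with earlier results of these data known. Named were all 10 members and, of each list, every called gene (where over 4 were called, the 4 with the largest difference) or, where none was called, the 2 with the largest difference. Outside this rule, Zic2, Dusp6, Slc25a31, Pcna, Nsd1, Hif1a, Neil3 and the genes of the other cell type and relatives' lists were named after their values were seen. Listed symbols were matched to the tables directly or through RefSeq synonyms. Promoter windows are those of RefSeq on GRCm38.p6, with all 10 members matched, and no coordinate was used on the expression values, whose build differs. Python 3.11.15, pandas 2.3.3, NumPy 2.4.6 and matplotlib 3.10.9 were used.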

Additional observations from a re-analysis of the deposited data

How the results depend on the processing

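Counts of the 10 genes by the 2-fold rule were 0 in each direction in all 4 comparisons, and stayed at 0 with a pseudocount of 0.1, without a filter, with a filter of 5 and under both rescalings. By the 1.5-fold rule, 2 were lower in SO, 2 lower and 1 higher in Ldha_KO and 2 lower in Ldhb_KO against WT, and 2 lower in Ldha_KO against Ldhb_KO. Combined with equal sums, an alternative added after the data were seen like the next, these became 0 in SO, 1 and 1 in Ldha_KO, 2 in Ldhb_KO and 1 between the knockouts. Combined with the median ratio to WT they were 0, then 2 and 1, 2 and 2. Of 40 differences (10 genes in 4 comparisons), 3 changed sign with equal sums, 2 with the median ratio and 0 with a pseudocount of 0.1. With that pseudocount, the counts over all genes were 808 higher and 182 lower in SO (353 and 62 as reported), 868 and 321 in Ldha_KO (348 and 139), 1141 and 311 in Ldhb_KO (441 and 143), and 419 and 574 between the knockouts (219 and 202). With a filter of 5 they were 234 and 40 in SO, and 262 higher in Ldhb_KO. By the 1.5-fold rule they were 1088 and 564, 1175 and 829, 1652 and 946, and 856 and 1063. No paired analysis was possible because each group has 1 library, and for the same reason no library could be left out. Depth in reads, and so the precision of Tet3 and Tdg, is unknown.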

Other observations

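The RNA methyltransferase Trdmt1, once named Dnmt2 and a relative of the Dnmt enzymes that acts on transfer RNA, was at 5.94 FPKM in SO, 4.89 in Ldha_KO, 5.13 in Ldhb_KO and 5.77 in WT. Uhrf1bp1 was at 9.18 FPKM in SO, 10.6 in Ldha_KO, 12.0 in Ldhb_KO and 9.88 in WT, and Uhrf1bp1l at 12.1, 17.1, 15.7 and 13.1 FPKM in that order of libraries. None of these 3 was called in any comparison.

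Markers of other cell types were at unlike levels. The summed level of 6 primitive endoderm markers, nearly all of it Sparc, was 180 FPKM in SO, 161 in Ldha_KO, 148 in Ldhb_KO and 163 in WT. Of the 3 kept, Sparc was above WT in SO only, at 175, 155, 144 and 160 FPKM in that order of libraries. Gata4 was at 1.26, 0.923, 1.21 and 0.518 FPKM, and passed the filter through SO and Ldhb_KO alone. Dab2 was at 2.58, 2.39, 1.45 and 1.52 FPKM. The summed level of 6 trophectoderm markers was 49.5 FPKM in SO, 55.7 in Ldha_KO, 55.7 in Ldhb_KO and 40.3 in WT. Cdx2, Elf5 and Gata3 were below 1 in each. Eomes was at 9.22 FPKM in SO, 6.77 in Ldha_KO, 3.77 in Ldhb_KO and 4.84 in WT. In the same order of libraries Krt8 was at 19.3, 30.6, 22.3 and 19.7 FPKM, and Krt18 at 19.8, 17.0, 29.0 and 14.8 FPKM. That of 5 germ cell markers, 3 of which also stand in the germline list, was 65.9 FPKM in SO, 148 in Ldha_KO, 94.1 in Ldhb_KO and 55.2 in WT. All 5 were at 1 FPKM or more in every library, and 2, 4 and 5 lay above WT in SO, Ldha_KO and Ldhb_KO. Stra8 was at 9.41 FPKM in SO, 31.0 in Ldha_KO, 14.8 in Ldhb_KO and 2.71 in WT, and was called higher than in WT in each.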
